A study of Rattus norvegicus with 12 samples.

Results

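The arrays described here are the vehicle controls of a study of neonatal rat heart muscle cells: primary cultures given ethanol alone, with no steroid. They were chosen by their titles, as the vehicle arrays of a first and a second experiment, and make up 2 of the 12 arrays. The cells came from the ventricles of 1-day-old Wistar rats, were dissociated with enzymes, and were separated from cardiac fibroblasts by how fast each kind adheres to a dish. They were grown in medium with 10% fetal calf serum, held for 24 h in OPTI-MEM, and exposed to ethanol for 3 h before total RNA was taken. The other 10 arrays came from cultures handled in the same way but given corticosterone (COR), aldosterone (ALD), cortivazol (CVZ) or the receptor antagonist RU486 at 10 µM, alone or before a ligand. No effect of those agents is described here. Nothing in the labels says whether the experiments used separate litters or separate preparations, so every spread and p-value below measures the spread between these arrays only, which may be technical.

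Ventricular cardiomyocytes shorten by sliding myosin filaments over actin filaments within the sarcomere. Calcium released from the sarcoplasmic reticulum starts each beat, and mitochondria supply most of the ATP. Around birth the rodent ventricle moves from fetal to adult forms of many contractile proteins and from glucose towards fatty acids as fuel, and heart muscle cells leave the cell cycle in the first days of life.

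The values were Affymetrix signals divided by each array's median, so that a signal of 1 is the signal of the middle probe set. The array holds 31099 probe sets, of which 20832 carried the name of 1 gene, 436 of several and 9831 of none. The named ones covered 14217 genes, each represented by its probe set of highest mean. A probe set's signal depends on how well its probes bind as well as on the amount of transcript, and it is not scaled to transcript length. That limit could be measured, because 3760 genes above background had more than 1 probe set. The best and the next best probe set of the same gene differed by a median of 2.49-fold, and by 14.8-fold at the 90th percentile. In the top 10% of genes the median was 3.19-fold and the 90th percentile 50-fold. The order of genes given below is therefore an order of probe-set signal. The number of arrays, 2, also limits its precision.

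A background level of 0.707 was set at the 90th percentile of 37 genes that belong to other organs, among them albumin, insulin, crystallins and digestive enzymes. By that level 9763 named genes, or 68.7%, had a mean signal above background, and 9247 of them were above it in both arrays. The median of all named genes was 2.18, and the top 10%, 1421 genes, began at 18.1. Across the 9247 genes above background in both arrays, the log2 signals of the vehicle arrays had a Pearson correlation of 0.962 and a Spearman correlation of 0.954. These are correlations across genes, which are not independent replicates. Of the genes above background in both arrays, 94.6% lay within 2-fold between them. Signals in the top 10% were lower in the second experiment by a median ratio of 0.781, a difference that quantile normalization took to a log2 value of 0.01.

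Promoter sequences of 6 genes are shown first, 4 for the heart muscle proteins whose levels open the description and 2 for mitochondrial carriers among its highest genes. They are the 250 bases before the transcription start, 5′ to 3′ on the gene's own strand, from RefSeq on the rat assembly GRCr8. Capitals mark every match, on either strand, to 4 short motifs: the TATA box as TATAAA, the M-CAT element of muscle genes as CATTCC, the GATA element as AGATAA and the ETS family core as CCGGAAG. None of these motifs contains another. Myh6, the alpha myosin heavy chain, has its promoter at chr15:32411698-32411947, minus strand. Tnnt2, cardiac troponin T, lies at chr13:49818873-49819122, plus strand. Acta1, skeletal alpha actin, lies at chr19:68784195-68784444, minus strand. Nppa, the atrial natriuretic peptide, lies at chr5:163711934-163712183, plus strand. Slc25a4, the muscle form of the ADP/ATP carrier, lies at chr16:52805271-52805520, plus strand. Slc25a3, the mitochondrial phosphate carrier, lies at chr7:27506628-27506877, minus strand.
Myh6: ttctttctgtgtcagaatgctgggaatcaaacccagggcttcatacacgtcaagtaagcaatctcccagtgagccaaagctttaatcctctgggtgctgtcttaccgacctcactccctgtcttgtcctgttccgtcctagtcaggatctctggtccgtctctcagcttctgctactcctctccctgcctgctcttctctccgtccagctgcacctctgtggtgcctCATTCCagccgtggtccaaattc
Tnnt2: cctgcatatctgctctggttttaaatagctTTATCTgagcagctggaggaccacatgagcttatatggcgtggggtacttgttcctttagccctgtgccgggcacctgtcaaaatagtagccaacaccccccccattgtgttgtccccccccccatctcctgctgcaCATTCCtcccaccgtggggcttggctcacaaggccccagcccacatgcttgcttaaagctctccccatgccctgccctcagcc
Acta1: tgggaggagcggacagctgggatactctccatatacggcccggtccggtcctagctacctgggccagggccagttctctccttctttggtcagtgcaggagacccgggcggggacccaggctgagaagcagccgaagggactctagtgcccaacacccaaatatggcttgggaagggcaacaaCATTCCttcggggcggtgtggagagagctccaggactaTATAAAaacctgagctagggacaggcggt
Nppa: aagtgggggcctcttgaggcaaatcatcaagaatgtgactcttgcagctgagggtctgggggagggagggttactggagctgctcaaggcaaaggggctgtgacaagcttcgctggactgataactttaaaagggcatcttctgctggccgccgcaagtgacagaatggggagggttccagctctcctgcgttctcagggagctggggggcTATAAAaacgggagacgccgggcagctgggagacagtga
Slc25a4: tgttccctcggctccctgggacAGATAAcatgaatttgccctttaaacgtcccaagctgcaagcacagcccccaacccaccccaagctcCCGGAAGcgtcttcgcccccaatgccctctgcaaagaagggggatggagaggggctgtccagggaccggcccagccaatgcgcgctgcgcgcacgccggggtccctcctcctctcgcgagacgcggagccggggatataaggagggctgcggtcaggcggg
Slc25a3: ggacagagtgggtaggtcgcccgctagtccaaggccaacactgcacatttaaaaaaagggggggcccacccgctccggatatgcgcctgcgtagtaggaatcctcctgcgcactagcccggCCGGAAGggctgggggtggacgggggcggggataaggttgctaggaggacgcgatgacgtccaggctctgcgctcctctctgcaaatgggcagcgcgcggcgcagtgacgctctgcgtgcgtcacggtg

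In Myh6 an M-CAT match begins 23 bases before the start. Tnnt2 holds an M-CAT match 83 bases before the start and a GATA match, on the other strand and so printed as TTATCT, at 220. Acta1 has a TATA box at 29 bases and an M-CAT match at 67, and Nppa a TATA box at 39. The ETS core stands 161 bases before the start of Slc25a4, which also has a GATA match at 228, and 129 bases before that of Slc25a3. These carriers were picked as the highest genes of the respiratory chain list whose promoter held the ETS core, so that match was fixed by the choice. Atp5f1b, of higher signal, has no ETS core. Promoters were matched by symbol for 11733 of the 14217 named genes, and 10.4% of those held the M-CAT letters, 8.04% a TATA box, 6.72% the GATA element and 12.9% the ETS core. Of the 15 cardiac sarcomere genes with a promoter 4 held M-CAT, 1 a TATA box, 2 the GATA element and 0 the ETS core. Of 42 respiratory chain genes 12 held the ETS core, or 28.6%, and 2 a TATA box. Counted at any place and on either strand, like the shares above, TATAAA stood in 39.1% of 23 other muscle isoforms. It stood in 43.3% of 30 genes of other organs, against 7.76% of the top 10% of genes. At 20 to 40 bases before the start, on the gene's own strand, these shares were 26.1%, 30% and 1.73%. All named genes had 1.77% there. A match is a description of these letters and shows no bound factor.

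The highest signals came from the mitochondrial respiratory chain, the sarcomere, the calcium store and the ribosome. COX1, encoded in mitochondrial DNA and a subunit of cytochrome c oxidase, ranked first with 504.8 in the first experiment and 446.9 in the second. COX2, its partner subunit, followed with 469 and 408. Both arrays placed these transcripts above every other named gene. Next came Atp2a2, the calcium pump of the sarcoplasmic reticulum, with 377 and 328. Myh6 gave 341 and 317, and Myl2, the ventricular regulatory light chain, 335 and 313. These were the leading genes of the calcium store and of the thick filament.

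Thin filament genes came close behind. Tnnt2 gave 341 and 288, Tnnc1, the calcium-binding troponin C, 318 and 287, and Tpm1, alpha tropomyosin, 308 and 278. Tnni3, cardiac troponin I, gave 249 and 255. Among the other 30 leading genes were Pln, the inhibitor of Atp2a2, at 313 and 261, and Gja1, the main connexin of working ventricle, at 279 and 261. Atp5f1b, the catalytic subunit of the ATP synthase, gave 294 and 282. Slc25a4 gave 303 and 254 and Slc25a3 295 and 256, so the carriers whose promoters are shown above sat beside the contractile genes. Cryab, the small heat shock protein of the Z-disc, closed the 30 at 234 and 199. The ribosomal protein Rps6 moved most among these genes, from 290 to 165. The 10 highest genes made up 2.79% of the summed signal of all named genes in the first array and 3.03% in the second, and the 100 highest 17.2% and 17.3%.

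**Figure D1:**
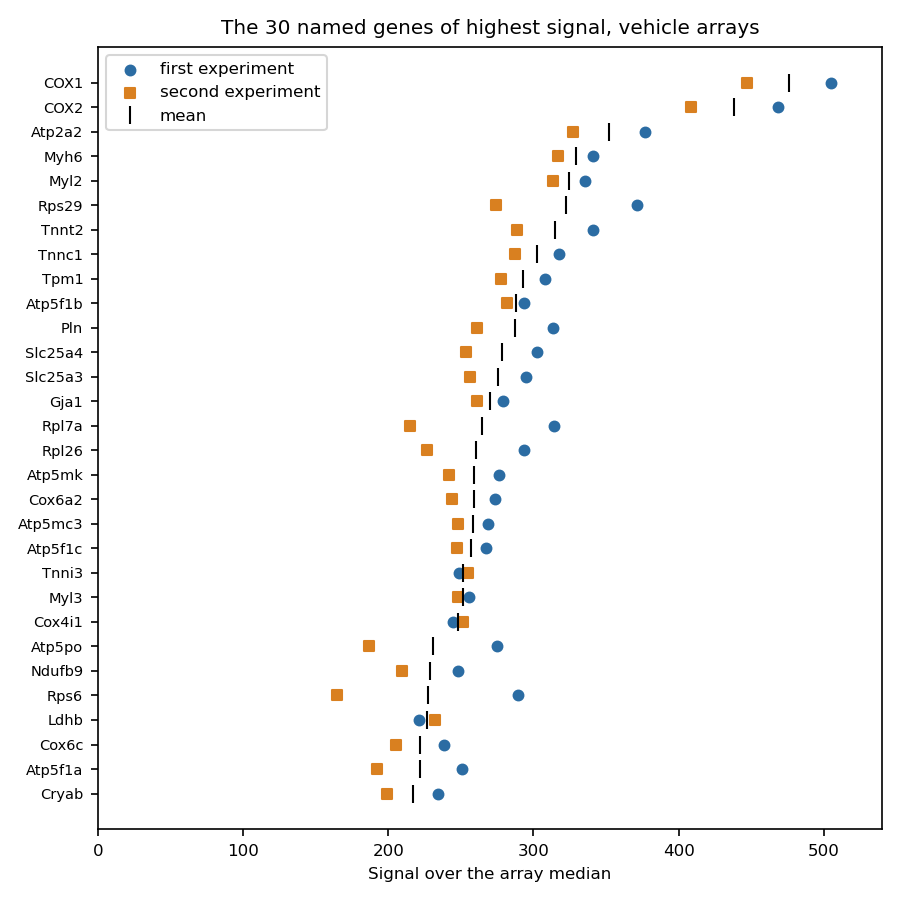
The 30 named genes of highest mean signal, with signal over the array median on a linear axis from 0, a circle for the first and a square for the second vehicle array and a line for the mean. COX1 and COX2 stand apart at 476 and 438, and all but Tnni3, Cox4i1 and Ldhb were lower in the second array.

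The label, cardiomyocytes, was set beside markers of cardiomyocytes and of other cell types. Lists and their members were chosen with earlier results of these data known. The marker levels are therefore a description and no independent check of the label. Of 10 cardiomyocyte markers 9 were measured, and all 9 were in the top 10% of genes in mean signal. The remaining one, Actc1, was only on probe sets with several gene names and is not analysed here. All 8 fibroblast markers were above background in both arrays, and 5 of them were in the top 10%. Their summed signal was 440 in the first array and 192 in the second, against 2255 and 2010 for the 9 cardiomyocyte markers. In a bulk sample fewer cells of a type and less RNA per cell cannot be told apart. Of 6 smooth muscle and pericyte markers 5 were above background, and Rgs5 was not. Of 4 endothelial markers measured, the vascular receptors Tek and Kdr were above background in both arrays, and Pecam1 and Vwf were not. In the wider endothelial list 10 of 15 genes were above background in both arrays, near the 65.0% of all named genes. Of 6 leukocyte markers Cd68 and Csf1r were above background in both arrays, as were 8 of 20 genes in the wider macrophage and leukocyte list. Msln, 1 of 2 epicardial markers measured, was above background in both arrays, and Wt1 was not. The wider epicardial list had 7 of 10 genes above background in both arrays. Among 3 erythroid markers Hbb and Alas2 were above background in both arrays, and Slc4a1 was not. No other gene of the 8 in the wider erythroid list was. All defining markers measured for Schwann cells and neurons (Sox10, Th, Prph), adipocytes (Adipoq, Plin1) and skeletal muscle cells (Myod1, Myog, Myh4) were below background in at least 1 array. Their wider lists were not empty. Above background in both arrays were 3 of 14 Schwann cell and neuron genes (Pmp22, Uchl1 and Dbh). So were 1 of 7 adipocyte genes (Cidea) and 2 of 13 skeletal muscle genes (Myh1 and Casq1).

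The order of the gene lists ran from energy and contraction at the top to receptors and markers of other tissues at the bottom. The median signal was 157 for 49 genes of the respiratory chain and ATP synthase and 153 for 22 cardiac sarcomere genes. It was 129 for 48 ribosomal protein genes, a list added once these data had been seen. It was 72.7 for the citrate cycle, 46.1 for chaperones, 34.9 for glycolysis and 29.6 for fatty acid oxidation. Cardiac transcription factors had a median of 5.93, channels and connexins 4.06 and proliferation genes 3.76. Nuclear receptors had a median of 1.33 and G protein coupled receptors of the heart 0.70. Of 29 lists, the ribosomal one included and the reference genes left out, 22 had a median of mean signals above the background level, against a median of 2.18 for all named genes.

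**Figure D2:**
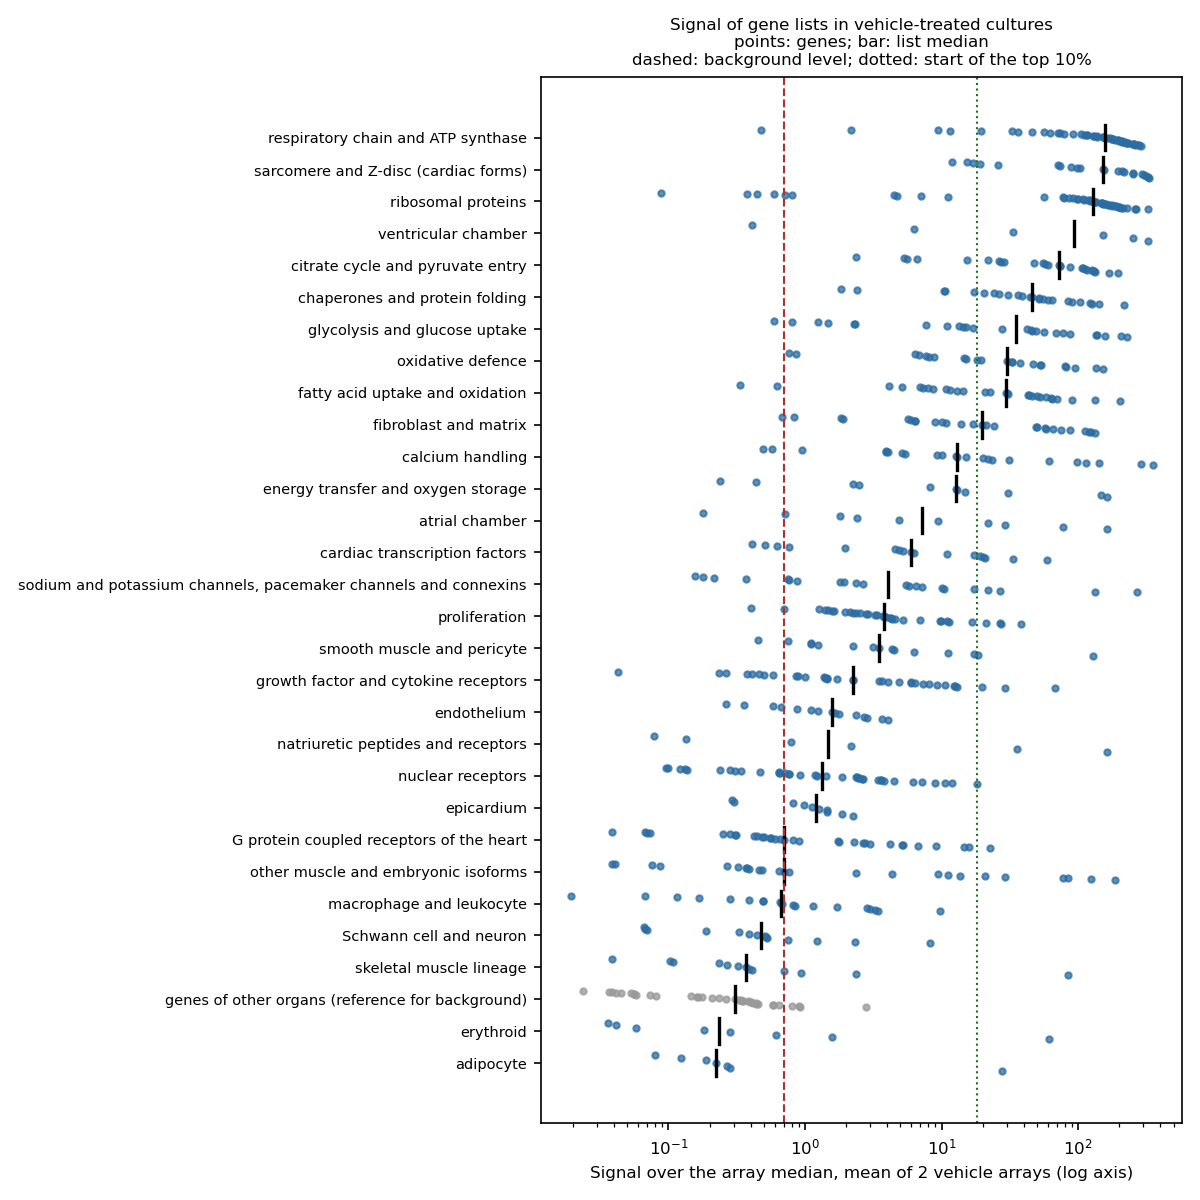
Mean signal of each measured gene (points, log axis) by gene list, with the list median (bar), the background level of 0.707 (dashed) and the start of the top 10% at 18.1 (dotted). Right of the dotted line lie 45 of 49 respiratory chain, 19 of 22 sarcomere and 38 of 48 ribosomal genes, and most adipocyte, erythroid and skeletal muscle genes lie left of the dashed line.

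All 22 cardiac sarcomere and Z-disc genes were above background in both arrays, and 19 were in the top 10%. The light chains led with the filament proteins. Myl3, the ventricular essential light chain, gave 255 and 248. Ttn, the giant elastic protein titin, gave 151 and 158, and Actn2, the actinin that anchors thin filaments at the Z-disc, 206 and 187. Ankrd1, a Z-disc and nuclear protein of stressed muscle, lay further apart between arrays at 258 and 162. The lowest of the list was Tcap, the cap of titin, at 13.0 and 10.8. Its neighbours were Smyd1, a myosin-folding methyltransferase, at 14.8 and 15.8, and Myom2, the adult M-band protein, at 22.7 and 11.2.

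Both ventricular myosin heavy chains were strong, with the adult rodent form ahead. Myh7, the beta chain that dominates the fetal rodent ventricle, gave 150 and 153, compared with 341 and 317 for Myh6. The log2 ratio of Myh6 to Myh7 was 1.19 and 1.05, a mean of 2.17-fold. The second probe set of Myh6, at a mean of 122, was below the best of Myh7, at 152, so the order rests on the choice of probe set. All 10 other arrays had the same order.

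Fetal and slow muscle forms ran from near the cardiac level down to background. Tnni1, the slow skeletal and fetal troponin I, gave 213 and 160, and Tnni3 exceeded it by a log2 of 0.23 and 0.67, too little for an order by the 2-fold rule. That rule asks for the same direction and at least 2-fold in both arrays. Acta1 gave 112 and 136. The other skeletal troponins were not above background in both arrays, so that only bounds can be given. A bound is the lower of the ratios in the 2 arrays, with the weaker gene set at the background level or at its own signal, whichever is higher. Tnni2 gave 0.132 and 1.27, and Tnni3 was at least 201-fold higher. Tnnt2 was at least 408-fold above Tnnt1 or Tnnt3, and Tnnc1 at least 406-fold above Tnnc2. Mybpc3, cardiac myosin-binding protein C, was at least 125-fold above the slow form Mybpc1. Of 25 other muscle isoforms, 14 were not above background in both arrays, against 4970 of all 14217 named genes.

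Myh1, a fast skeletal myosin heavy chain, went against that pattern. Its best probe set gave 62.8 and 107, and its 5 probe sets had means from 26.4 to 84.9. Myh2 gave 0.313 and 0.462 and Myh4 0.0396 and 0.0378, both at background in both arrays. Myod1 and Myog, which define skeletal muscle, gave 0.137 and 0.0798 and 0.652 and 1.21. Whether the Myh1 probe sets bind transcripts of another myosin was not tested.

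Ventricular forms exceeded atrial forms, but the atrial forms were far above background. Myl7, the atrial regulatory light chain, gave 82.8 and 73.0, and Myl2 was 4.17-fold higher. Myl4, the atrial and fetal essential light chain, gave 30.3 and 28.4, and Myl3 was 8.59-fold higher. Irx4, a ventricular transcription factor, gave 35.6 and 31.1. Nr2f2 and Nr2f1, regulators of atrial identity, gave 2.88 and 1.94, and 0.775 and 0.660. Myl2 has another probe set at 4.80, below Myl7, and taking the median over probe sets lowered the log2 ratio of Myl2 to Myl7 to 1.08. Tpm1 exceeded Tpm2, beta tropomyosin, by 15.7-fold, but without probe sets that can bind several transcripts the log2 ratio was 0.58.

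The natriuretic peptides Nppa and Nppb, hormones released by stretched heart muscle, were abundant. Of the receptor genes on their list only Npr2 was above background in both arrays. Nppa gave 191 and 137 and Nppb, the B-type peptide, 50.2 and 20.7. Nppa was 5.02-fold higher, and the arrays ran the same way. Npr1, the receptor for both, was at background with 0.0485 and 0.109. Npr2, the receptor for the C-type peptide, gave 2.32 and 2.03. Npr3 had a mean of 0.784 and was not above background in both arrays.

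Among calcium handling genes the cardiac form led in each family with a skeletal form on the list. Ryr2, the release channel of the sarcoplasmic reticulum, gave 129 and 98.5, at least 139-fold above its skeletal form Ryr1. Atp2a2 was at least 390-fold above Atp2a1, which gave 0.0793 and 0.840, and at least 463-fold above Atp2a3, though its other 4 probe sets ranged from 1.01 to 51.3. Casq2, the calcium buffer of the cardiac store, gave 156 and 126 and was 62.9-fold above Casq1 at 1.61 and 3.08. Pln exceeded Sln, the atrial pump inhibitor sarcolipin, by 31.3-fold, and by a log2 of 4.31 with the median over probe sets. Slc8a1, the sodium-calcium exchanger, gave 112 and 83.3.

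The surface calcium channels were weaker. Cacna1c, the pore of the L-type channel, gave 14.7 and 15.4, at least 20.8-fold above Cacna1d, which lay at background. The T-type pores Cacna1g and Cacna1h, typical of fetal and pacemaker cells, gave 3.98 and 4.11 against 3.05 and 4.81. Their order changed between the arrays, so none is given. Fkbp1b, which binds the release channel, gave 0.833 and 0.315.

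Among connexins Gja1 was first, followed by Gja5, found in atria and conduction fibres, at 27.7 and 15.8, and Gjc1 at 13.9 and 6.95. Gja1 was 12.9-fold above Gja5, but only a log2 of 0.91 above it by the median over probe sets, since the other probe sets of Gja1 were at 23.5 and 0.393. Kcnip2, which shapes the transient outward potassium current, was higher in the second array, with 15.1 and 38.0. Kcnj2, a pore of the inward rectifier that sets the resting potential, gave only 0.907 and 0.832. Hcn2, a pacemaker channel, gave 1.94 and 2.81, and Hcn4, its sinus node counterpart, was at background.

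Of the cardiac transcription factors 13 of 17 were above background in both arrays, against 65.0% of all named genes. Mef2a led with 65.4 and 52.4, 2.93-fold above Mef2c at 20.7 and 19.3. Gata4 gave 16.5 and 21.6 and Nkx2-5 15.0 and 19.3, both central to cardiac identity. Tbx2, Tbx3, Isl1 and Hand1, which mark nodal tissue, progenitors and the early left ventricle, were not above background in both arrays.

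Most mitochondrial energy genes were high. In the respiratory chain and ATP synthase list 45 of 49 genes were in the top 10%. Cox6a2, the heart and muscle form of a cytochrome c oxidase subunit, gave 274 and 244, 1.90-fold above the general form Cox6a1 at 144 and 128, which missed the 2-fold rule. Cox8b, the muscle form, gave 187 and 126, and the general form Cox8a 190 and 185. Cox7a1, a further muscle form, was low at 1.44 and 2.92. Cox4i2, the lung form, was at background, and Cox4i1 was at least 346-fold higher. No order is given between the muscle and general forms of Cox6a or Cox8.

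In the citrate cycle all 27 genes were above background in both arrays, led by Mdh1 at 216 and 176 and Idh2 at 181 and 157. The pyruvate dehydrogenase kinases, which shut the entry of glucose carbon, ranked in the lower part of that list. Pdk2 gave 18.7 and 25.1, and Pdk4, the fasting-induced form, 6.95 and 4.15. Pdk2 was 4.03-fold above Pdk4 here, and that order held in 7 of the 10 other arrays.

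Fuel genes for fat and glucose stood side by side. Fabp3, the heart fatty acid binding protein, gave 210 and 194 and was 14.6-fold above Fabp5 and at least 275-fold above Fabp4 of fat cells, which lay at background. Cpt1b, the muscle form of the enzyme that admits fatty acids to mitochondria, gave 62.4 and 66.2, and the liver and fetal form Cpt1a 33.3 and 25.8. That ratio was a log2 of 0.90 and 1.36, so no order is given. Of 29 fatty acid genes 17 were in the top 10%.

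Glycolytic paralogs had no single direction, and the general form led over the muscle form for hexokinase, enolase and phosphoglycerate mutase. Hk1 gave 41.4 and 42.9 and was 29.0-fold above Hk2, the insulin-regulated muscle hexokinase, at 1.29 and 1.64, although a second Hk1 probe set was below Hk2 and by the median over probe sets the log2 ratio of Hk2 to Hk1 was -3.87. Eno1 exceeded the muscle enolase Eno3 by 7.86-fold, and Pgam1 exceeded the muscle form Pgam2 by 5.11-fold. For phosphofructokinase the muscle form Pfkm gave 45.8 and 44.3, ahead of the liver form Pfkl at 1.10 and 3.56. Aldoa was 15.4-fold above Aldoc. Pfkm over Pfkp, at 1.67-fold, and the glycogen phosphorylase Pygm over Pygb, at 1.23-fold, missed the 2-fold rule. None of these ratios exceeded the 90th percentile of probe-set spread in the top 10% of genes. Ldhb, the heart lactate dehydrogenase, gave 221 and 232, and Ldha 178 and 134, within 2-fold. The glucose transporters crossed over: Slc2a4 gave 8.87 and 13.0, and the fetal form Slc2a1 9.83 and 5.42.

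Creatine kinase was of the muscle kind. Ckm gave 136 and 156 and was 58.6-fold above the brain form Ckb at 2.65 and 2.33. Ckmt2, the sarcomeric mitochondrial form, gave 15.7 and 9.66, at least 13.7-fold above Ckmt1, which lay at background. Myoglobin, Mb, gave 168 and 157.

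The plot of paired forms sets these ratios beside the spread between probe sets of a single gene. Of 63 pairs of related genes, 56 were measured and 7 are not analysed here. The 2-fold rule gave an order for 42, of which 2 (Agtr1a with Agtr1b or Agtr2) are given no fold because neither gene was above background in both arrays. In 12 of the 42 the ratio, or its bound where the weaker gene was not above background, exceeded the 90th percentile of probe-set spread for the top 10%. In 31 of the 42 every probe set of the higher gene was above the best of the lower, and in 11, including the myosin heavy chains and Gja1 over Gja5, this was not so. In 41 the order was the same in all 10 other arrays, Pdk2 over Pdk4 being the exception.

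**Figure D3:**
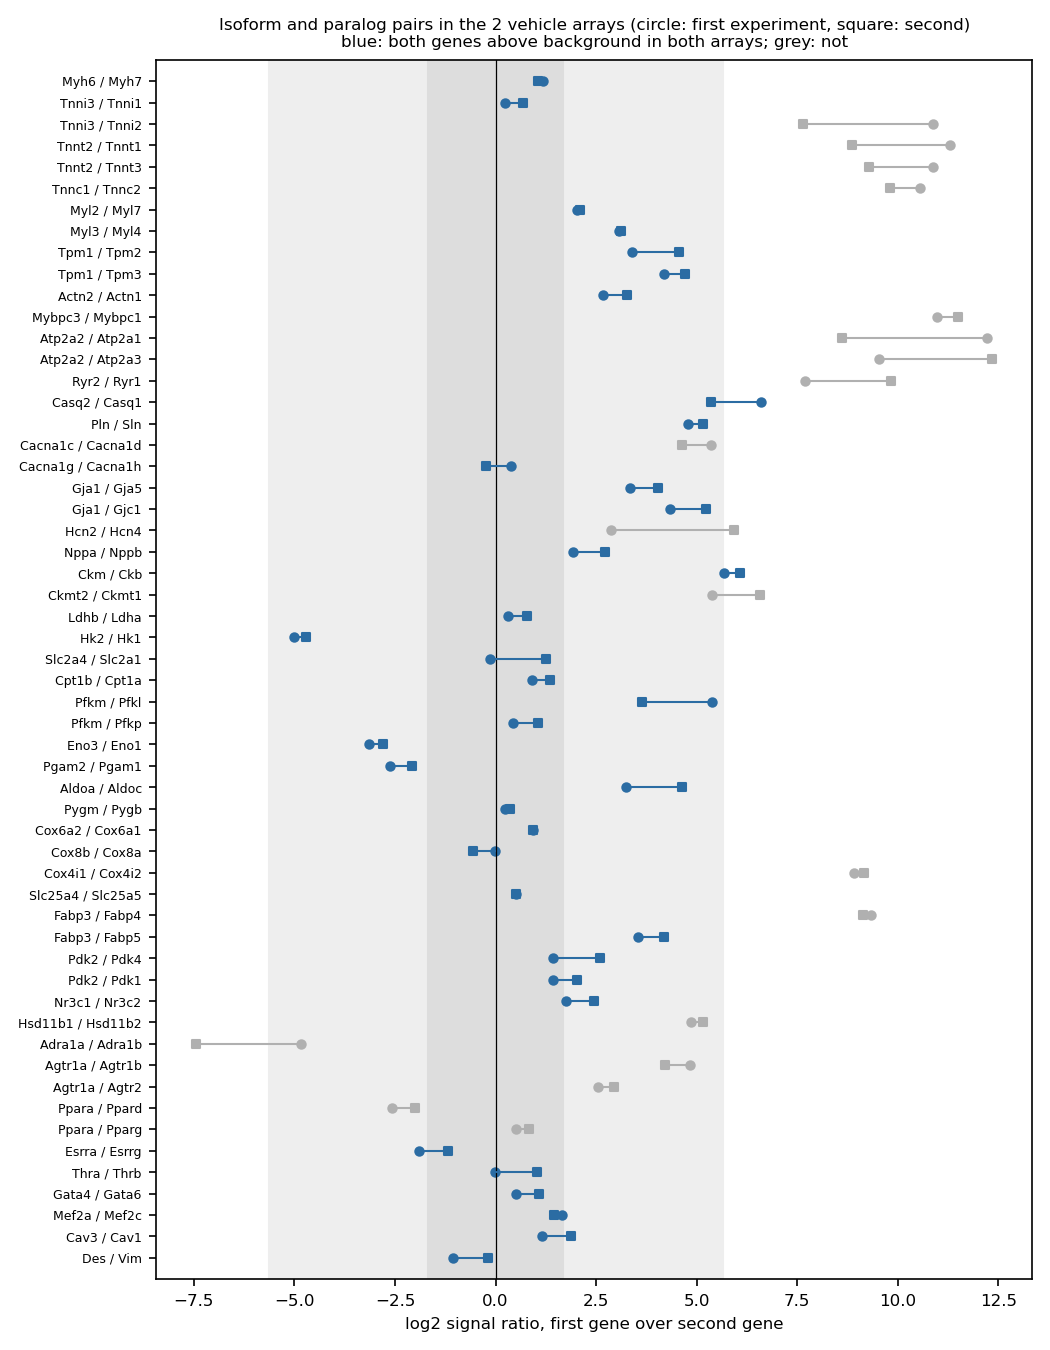
Log2 signal ratio of the first over the second gene of each measured pair, with a circle for the first and a square for the second vehicle array, blue where both genes were above background in both arrays and grey where not. The shaded bands are the median (1.67) and the 90th percentile (5.64) of the log2 difference between the best 2 probe sets of a single gene in the top 10%, and most blue pairs lie inside the outer band.

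The receptors that the study's ligands bind were measured above background. Nr3c1, the glucocorticoid receptor, gave 11.6 and 9.54, and Nr3c2, the mineralocorticoid receptor, 3.45 and 1.76. Nr3c1 was 4.27-fold higher, though its second probe set, at 1.13, lay below Nr3c2, and by the median over probe sets the log2 ratio was 1.24. Hsd11b1, which regenerates active glucocorticoid, gave 11.1 and 3.28. Hsd11b2, which inactivates glucocorticoid, lay at background with 0.383 and 0.0924, so Hsd11b1 was at least 4.64-fold higher.

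Of 38 genes in the nuclear receptor list, 22 were above background in both arrays, against 65.0% of all named genes. Esrrg, an orphan receptor that drives mitochondrial genes, led the list with 21.5 and 14.9, 2.91-fold above Esrra. Ppard, a fatty acid sensing receptor, gave 3.34 and 3.89. Ppara gave 0.559 and 0.979, so Ppard was at least 3.98-fold higher. Pparg gave 0.392 and 0.550, and no order is given between Ppara and Pparg. The sex steroid receptors Esr1, Esr2 and Pgr were at background in both arrays.

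Of 33 G protein coupled receptor genes 14 were above background in both arrays, against 65.0% of all named genes. S1pr1, a sphingosine phosphate receptor, led with 24.4 and 20.8. Adra1b, an alpha adrenergic receptor of heart muscle, gave 15.4 and 13.9, at least 19.6-fold above Adra1a, which lay at background. Adrb1, the main beta adrenergic receptor of heart muscle, gave only 2.64 and 1.92, and Chrm2, the muscarinic receptor, 3.68 and 2.34. Agtr1a, an angiotensin receptor, gave 2.86 and 0.618, so it cleared background in the first array only. Among growth factor and cytokine receptors 25 of 35 were above background in both arrays, near that share. Igf2r led at 75.5 and 60.6, followed by Il6st, the shared chain of the interleukin 6 family, at 32.6 and 25.4. Erbb2 gave 4.08 and 4.03, and its partner Erbb4 1.13 and 0.588.

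Matrix genes of fibroblasts were the highest non-myocyte group. Their median was 27.7 in the first array and 8.44 in the second, so the median of mean signals, 19.6, describes neither array. Mgp, an inhibitor of calcification, gave 181 and 85.2, and Col3a1, a fibrillar collagen, 122 and 53.6. Postn, periostin of activated fibroblasts, gave 78.4 and 21.0. Pdgfra, the growth factor receptor that marks cardiac fibroblasts, gave 10.7 and 2.11. All 27 were higher in the first array.

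Lists of other non-myocyte cells had lower medians, with single high genes. Myl9, a regulatory light chain of smooth muscle, gave 142 and 113. Tagln, an actin-binding protein of smooth muscle, gave 26.8 and 10.1, and Acta2, smooth muscle actin, 11.3 and 11.1. Lyz2, lysozyme of macrophages, gave 10.2 and 9.27, while C1qa, C1qb and Cd163 of tissue macrophages were not above background in both arrays. Hbb, a globin of red cells, gave 91.0 and 32.2, but Alas2 gave 1.52 and 1.61, and Ahsp and Klf1 were at background. Cidea, a lipid droplet protein listed with fat cell genes, gave 28.8 and 26.9, while Adipoq, Plin1, Cfd, Ucp1, Lep and Cidec were at background. In the erythroid and fat cell lists 1 gene was thus in the top 10%, beside defining markers at or near background.

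Because 2 arrays allow no test, the difference between experiments was tested over the 8 arrays of the treatments run in both, vehicle, CVZ, COR and ALD, with treatment as a block. The limma fit had 3 residual degrees of freedom and drew 13.7 more from the prior. Of 10098 named genes tested, 33.6% were lower and 11.2% higher in the second experiment at a Benjamini-Hochberg adjusted p under 0.05. Over all probe sets tested 28.9% were lower and 10.4% higher, so that 73.5% of calls were lower. With quantile normalization this share was 48.9%, and the median difference of named genes moved from a log2 of -0.14 to 0.02. With trimmed mean scaling the share was 68.3% and the median -0.10. The balance of calls thus depended on the scaling, and how many genes changed direction was not counted.

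Fibroblast and matrix genes were mostly lower in the second experiment. Of 27 tested 24 were called lower and 3 were not called, with a median log2 difference of -1.08 against -0.14 for all named genes. Trimmed mean scaling gave the same counts with a median of -1.04, and quantile normalization 24 lower and 1 higher with a median of -0.85. Postn fell by 1.75 ± 0.06 (SE) on the log2 scale (limma adjusted p = 2.0e-11), and the differences within the 4 treatments were -1.90 for vehicle, -1.66 for CVZ, -1.80 for COR and -1.65 for ALD. Lox, which crosslinks collagen, fell by 1.92 and Fbln2, a basement membrane glycoprotein, by 1.77. All these treatments gave the same direction for Postn.

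Proliferation genes were also lower, 25 of 33 with 2 higher and a median of -0.74, and 23 lower and 2 higher after quantile normalization. Ccnd1, the cyclin that starts the cycle, fell by 2.31 ± 0.13 (limma adjusted p = 6.9e-10), from 18.3 to 3.46 in the vehicle arrays. Ccna2 fell by 1.70 and Mki67, a nuclear protein of cycling cells, by 1.16. The 2 that rose were cell cycle inhibitors: Cdkn1a by 0.89 and Cdkn1c by 0.28. Cdkn1b, another inhibitor on the list, went the other way. Its differences were -0.44 within vehicle, -0.80 within CVZ, -0.51 within COR and -0.56 within ALD. The summed signal of the fibroblast markers was also lower in the second vehicle array, 192 against 440, and its part in the proliferation difference was not tested. Of 13 endothelial genes 8 were lower and 5 not called, and Tek fell by 1.45.

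The contractile genes had no common direction. Of 22 sarcomere genes 6 were higher, 8 lower and 8 not called, and quantile normalization turned this to 12 higher and 3 lower. Of all named genes tested 11.2% were higher and 33.6% lower. With quantile normalization their counts went from 1127 higher and 3396 lower to 2199 higher and 2016 lower. Myh6 differed by -0.05 ± 0.04 (limma adjusted p = 0.41) and Myl2 by -0.12 (0.055). Mybpc3 rose by 0.57 and Ankrd1 fell by 0.63. Respiratory chain genes went from 2 higher and 28 lower to 18 higher and 8 lower under quantile normalization, and ribosomal genes from 36 lower to 4 higher and 18 lower. Under trimmed mean scaling the counts were 6 higher and 8 lower for the sarcomere, 4 and 26 for the respiratory chain, and 34 lower for ribosomal genes. The balance of calls thus turned with quantile normalization for the sarcomere and respiratory chain, as it did for all named genes, and stayed lower for ribosomal genes.

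Single genes of other lists moved by more than that shift. Kcnip2 rose by 1.67 ± 0.08 (limma adjusted p = 2.4e-10). Hsd11b1 fell by 1.87 ± 0.10 (limma adjusted p = 6.8e-10). The baseline level of both depends on which vehicle array is read. Hbb fell by 1.70, Nppb by 1.13 and Aldoc, the brain form of aldolase, by 1.28. Hsp90b1, a chaperone of the endoplasmic reticulum, fell by 1.22, and the glycolytic gene Pfkl rose by 1.34.

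**Figure D4:**
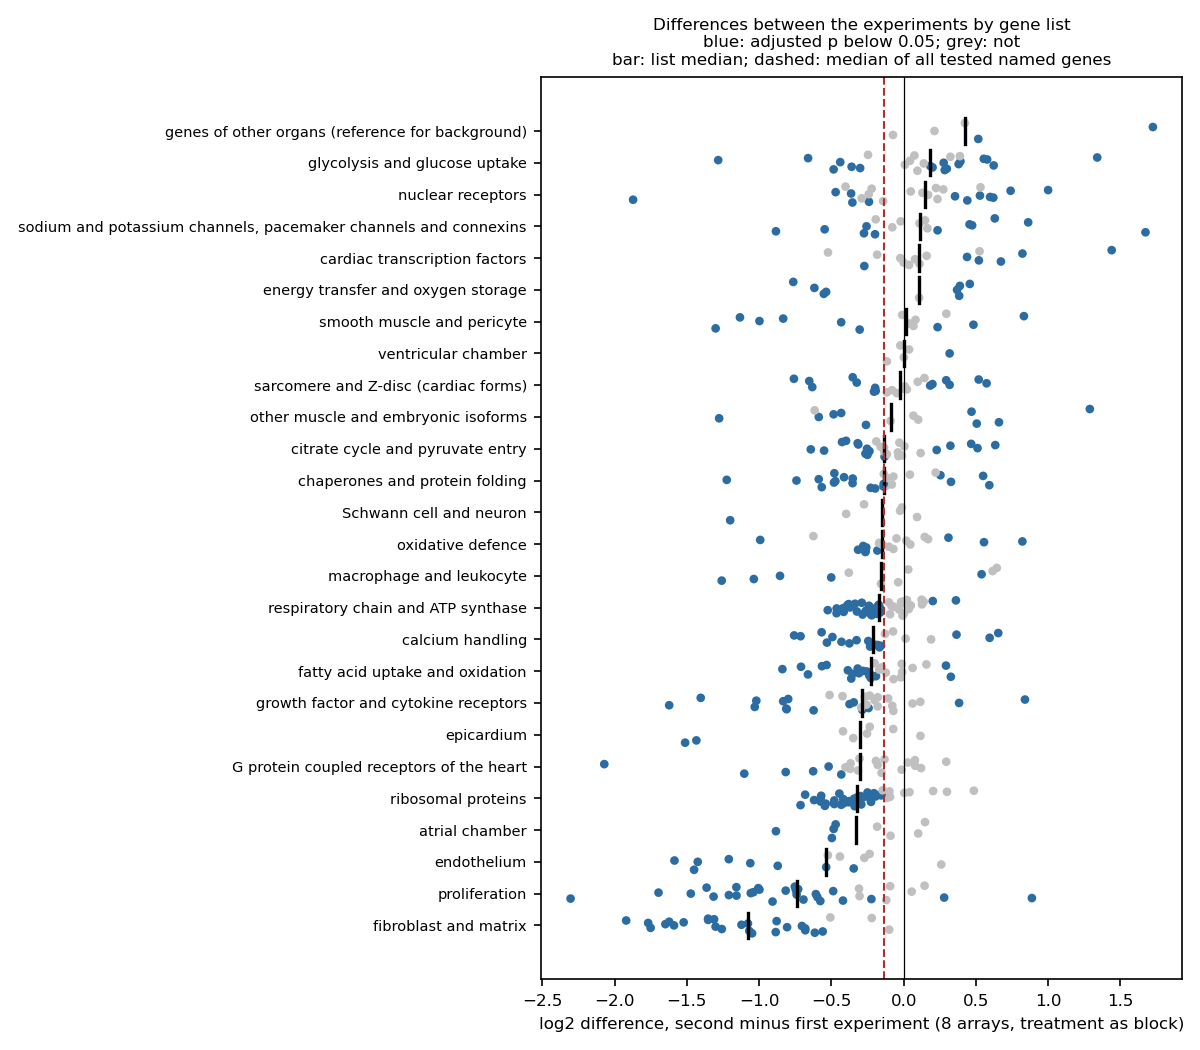
Log2 difference, second minus first experiment, of each tested gene by list over 8 arrays with treatment as a block, blue where the adjusted p was under 0.05, with list medians as bars and the median of all tested named genes dashed. Fibroblast genes have a median of -1.08, and those of the sarcomere spread on both sides of 0.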

How the data were processed

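Total RNA of 12 cultures was hybridised to Affymetrix rat arrays, 1 array each. The deposited value is an intensity on a linear scale, MAS5 signal per the submitters' processing notes. In the deposited files every array has a median of 1, and times that array's earlier median (22.7 and 23.8 for the vehicle arrays) the values are multiples of 0.1, so each was divided by its median. The scanner files, detection calls and build are not given in the sources used here. Probe sets were named from the platform annotation, with symbols updated through gene IDs.

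Each gene was represented by its probe set of highest mean over the vehicle arrays. Levels, lists and pairs are descriptions with no test. Named in the text were the 30 highest genes, leading and defining members of each list, the pairs, and list members called between experiments, at least the 3 largest where a list is described there. Not every gene meeting this rule is reported. Members, lists and pairs were chosen with earlier results of these data known. Chosen after seeing values were Myh1, Cidea and Hbb.

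For the difference between experiments, log2(signal + 0.0682) was fitted with limma 3.58.1 in R 4.3.3 (lmFit, eBayes with a trend), with 57 control probe sets left out and the lowest 40% by mean removed, leaving 18625. Fold changes on this scale understate the change of low genes. On simulated data for this comparison, run on 18625 probe sets, 84.8% of changes of 1 log2 unit and 100% of changes of 2 were recovered, with 6.11% false calls. The simulation changed 200 probe sets, equally up and down, with no treatment effect and no shift of whole arrays. Of the real calls 73.5% were lower, so these shares need not hold for them. Python 3.11.15 did the rest.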

Additional observations from a re-analysis of the deposited data

How the results depend on the processing

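Against the 30 leading genes, 23 remained with the median over a gene's probe sets, 26 without probe sets that can bind several transcripts, 30 with quantile normalization or a geometric mean, and from 26 to 28 with either vehicle array alone. Lists with a median of mean signals above background numbered 22, and from 22 to 26 under the alternatives, from 22 to 24 with 1 array. Pairs with an order numbered 42, and 40, 38, 41 and 42 in that order of settings, from 43 to 47 with 1 array and 33 when 4-fold was asked. No pair with an order reversed under these settings, but 2 had no value without the shared probe sets. Levels were less stable than these counts. List medians shifted by as much as a log2 of -0.88 with the median over probe sets. The shifts ran from -1.22 to 0.32 with the second vehicle array alone, and from -0.75 to 0.55 with the first alone. The calls between experiments, 7331 probe sets, numbered 7511 with a pseudocount of 1, 6658 without the filter, 6843 with quantile normalization, 7058 with trimmed mean scaling, 5483 without the trend and 5755 without treatment as a block. Leaving out the first-experiment array of 1 treatment, and so its pair, gave from 6002 to 6618. No paired analysis was possible because the levels come from no test, and the shared replicate number is the experiment, so a block on it would remove the contrast. The arrays of a treatment were paired across experiments by the treatment block instead. Affinity of probes and the number of arrays limit the order of genes, and no detection call bounds low signals.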

Other observations

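The defence against oxidants and the protein folding machinery have not been described above. Of 23 genes of oxidative defence 22 were above background in both vehicle arrays. Txn1, thioredoxin, led with 174 and 131, followed by Sod1, the cytosolic superoxide dismutase, at 150 and 118. Mt1 and Mt3, metal-binding metallothioneins, were the lowest at 0.960 and 0.769, and 0.339 and 1.18, and Mt2A gave 9.39 and 8.17.

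All 25 chaperone genes were above background in both arrays, and 20 were in the top 10%. After Cryab the highest were Hspd1, the mitochondrial chaperonin, at 158 and 123, and Hspa5, the chaperone of the endoplasmic reticulum, at 154 and 99.5. The muscle-enriched small heat shock proteins Hspb7 and Hspb6 gave 76.0 and 105, and 67.7 and 60.3. Hspa1a, the stress-inducible form, was near the foot of the list at 2.90 and 1.92, as was Fkbp5, a co-chaperone of steroid receptors, at 1.52 and 2.17. Unc45b, which folds myosin, gave 48.6 and 55.0.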
